A study of Mus musculus with 14 samples.

Results

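The course of gene expression in undisturbed differentiation of the mouse preadipocyte line 3T3-L1, whose fibroblast-like cells become fat cells when given hormones, was read from the arrays of the culture that carried an empty retrovirus. Late arrays (96 and 192 h) were compared with early arrays (0, 12 and 24 h), so 5 of the 14 arrays of the series were compared. The remaining arrays were those of the empty virus at 36 and 48 h and 7 arrays, at the same 7 hours, of a culture labelled as carrying a SETD5 virus (SETD5 is a protein with a SET domain). There were 18193 genes that could be read from a probe set naming no other gene, and 8447 of them had intensities of at least 50 on 2 or more of these arrays and were compared.

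The 0 h array was of cells held at confluence and not yet given hormones. The 12 and 24 h arrays were of cells in a mixture of insulin, dexamethasone and isobutylmethylxanthine, which raises cyclic AMP, and the 96 and 192 h arrays were of cells that had gone on to insulin alone. The cells carried a virus throughout and were a cultured line, not fat tissue. Each hour had 1 array, so the hours of a window stand in for replicates, and the spread within a window holds real change between its hours. A p-value then says only how far the windows lay apart against that spread. In such bulk RNA a larger share of fat cells and more RNA per fat cell cannot be told apart.

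Adipogenesis in this line runs in a known order. The hormone mixture first induces C/EBPβ and C/EBPδ and sends the confluent cells through further rounds of division, and these factors then switch on PPARγ and C/EBPα. PPARγ and C/EBPα keep each other on and bind near the genes of lipid uptake, triglyceride storage and insulin response, while the cells leave the cycle, round up and fill with lipid droplets.

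The 5 arrays were alike in range: 42.4% to 45.3% of the 18193 genes stood at 50 or more, and the median intensity over all 18193 was 24.1 to 32.8. Markers bore out the label of the line. Of 9 fibroblast and preadipocyte markers on the array 8 were compared, and Vim (vimentin) stood at 5259 to 6651 and Col3a1 (a collagen chain) at 5474 to 6890 on the 5 arrays. Cd34, the other marker, stayed at 9.8 or below. None of the listed markers of skeletal muscle (7 with a probe set), osteoblasts (3), leukocytes (7), endothelium (5) or epithelium (5) reached the filter. Of the 5 chondrocyte markers on the array, Sox9, a cartilage transcription factor, was compared, with 202.9, 198.1 and 189.1 early and 131.6 and 65.2 late (-0.96 ± 0.29, adjusted p = 0.2). The highest value among the leukocyte markers on any empty virus array was 31.6, for Csf1r at 0 h. Higher values were seen for the muscle marker Des, at 50.6 at 192 h alone, and the epithelial marker Epcam, at 29.7 to 49.2. Ucp1, the uncoupling protein of brown fat, was at 4.9 or below at every hour.

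Expression late was higher than early for 54 genes and lower for 5 by limma's moderated test at an adjusted p under 0.05, which is 0.639% and 0.0592% of the genes compared. These counts rest on single arrays: without the 12 h array they were 6 and 0, and without the 0 h array 130 and 63. An unadjusted p under 0.05 was found for 1392 genes. Because the test sets the difference against change between hours, genes were also described without a test: 443 genes (5.24%) were at least 2-fold higher late with both late arrays above all 3 early arrays, and 326 (3.86%) were at least 2-fold lower with both below. These are called late-high and late-low genes here. All 54 and all 5 called genes were among them. Every early array was under 50 for 30 of the 54 and for 96 of the 443. Those genes passed the filter only through the late arrays, which fixes their direction. The shares over all genes given here are the background for the counts of each list below. Some genes stand in more than 1 list, so the counts of different lists are not separate. Of any size, 16.5% of the genes lay above all early arrays on both late arrays and 19.5% lay below. With each array scaled to a common median in place of the deposited scaling, the median difference of all genes moved from -0.02 to -0.17 (log2) and late-high genes made up 44.8% of the late-high and late-low genes together, against 57.6% as deposited. The words rose and fell are kept for called genes, and all differences are on the log2(intensity + 16) scale.

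**Figure D1:**
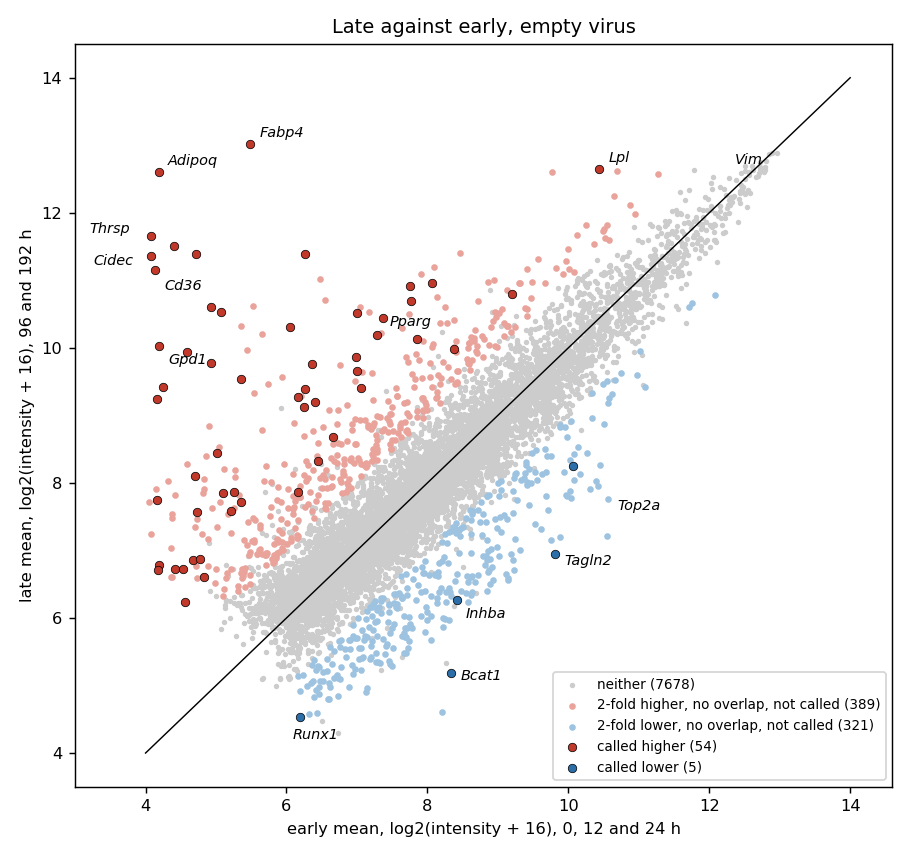
Mean log2(intensity + 16) of each of the 8447 genes over the 0, 12 and 24 h arrays (x axis) and over the 96 and 192 h arrays (y axis), with no error bars. The 54 called higher genes lie mostly at the left edge, where early levels were low, and 3 of the genes near the top left are Adipoq, Fabp4 and Thrsp; the 5 called lower genes lie under the line of equality.

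The largest rises were in genes that define the fat cell. Adipoq, which encodes the hormone adiponectin, had intensities of 1.1, 1.9 and 3.7 at 0, 12 and 24 h and of 5251 and 7276 at 96 and 192 h. It went from among the dimmest to among the brightest probe sets, a difference of 8.41 ± 0.23 (SE, 3 against 2 arrays; 340-fold, adjusted p = 0.000204). Fabp4, the main fatty acid carrier of fat cells, had 32.2, 19.6 and 36.3 early and 7526 and 9162 late (7.54 ± 0.25, 186-fold, adjusted p = 0.000235). Early intensities this low lie under the filter of 50, so the fold depends on the offset: with an offset of 4 or 64 in place of 16, the difference for Adipoq was 9.98 or 6.56. The same holds for the other genes below with early values under 50.

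Cidec, which lines lipid droplets and lets them fuse, had 1.2, 0.2 and 1.3 early and 1664 and 4115 late (7.29 ± 0.39, adjusted p = 0.00242). Retn, the gene of the secreted protein resistin, had 2.4, 4.4 and 9.2 early and 1802 and 4694 late (7.11 ± 0.42, adjusted p = 0.00384). For each the windows lay far apart, and the late arrays themselves differed, with 192 h above 96 h. Cd36, a fatty acid translocase, had 0.7, 2.4 and 1.6 early and 1163 and 4403 late (7.02 ± 0.53, adjusted p = 0.00947). Car3, a carbonic anhydrase abundant in fat, had 6, 5.8 and 21.8 early and 1236 and 5751 late (6.68 ± 0.65, adjusted p = 0.0193). Lpl, the lipoprotein lipase that frees fatty acids at the cell surface, was different in kind: it already stood at 1458, 1587 and 1123 early and rose to 6123 and 6647 (2.20 ± 0.23, 4.6-fold, adjusted p = 0.0235).

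In the list of adipocyte markers all 14 compared members were late-high and 10 were called, with a median difference of 4.80 beside -0.02 over all genes; the list was drawn up with earlier results of these arrays known. Of the 14, 11 had every early array under 50 (141 of all 8447 genes did) and so passed the filter only through the late arrays, where they were high, which fixes their direction. Leptin (Lep), a hormone of mature fat, was not compared: it was at 1.5 or below until 96 h and at 28.1 at 192 h. Outside that list, Thrsp, a lipogenic regulator, had 0.4, 1.6 and 0.7 early and 2616 and 3920 late (7.57 ± 0.24, adjusted p = 0.000235). Sult1a1, a sulfotransferase, had 13.1, 20.2 and 11.2 early and 1378 and 1724 late (5.67 ± 0.23, adjusted p = 0.000596). Adipoq, Fabp4, Thrsp, Cidec and Sult1a1 were the 5 genes called in the comparison of all 5 arrays and again with any 1 of the arrays left out (highest adjusted p among these fits 0.0403, for Cidec).

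**Figure D2:**
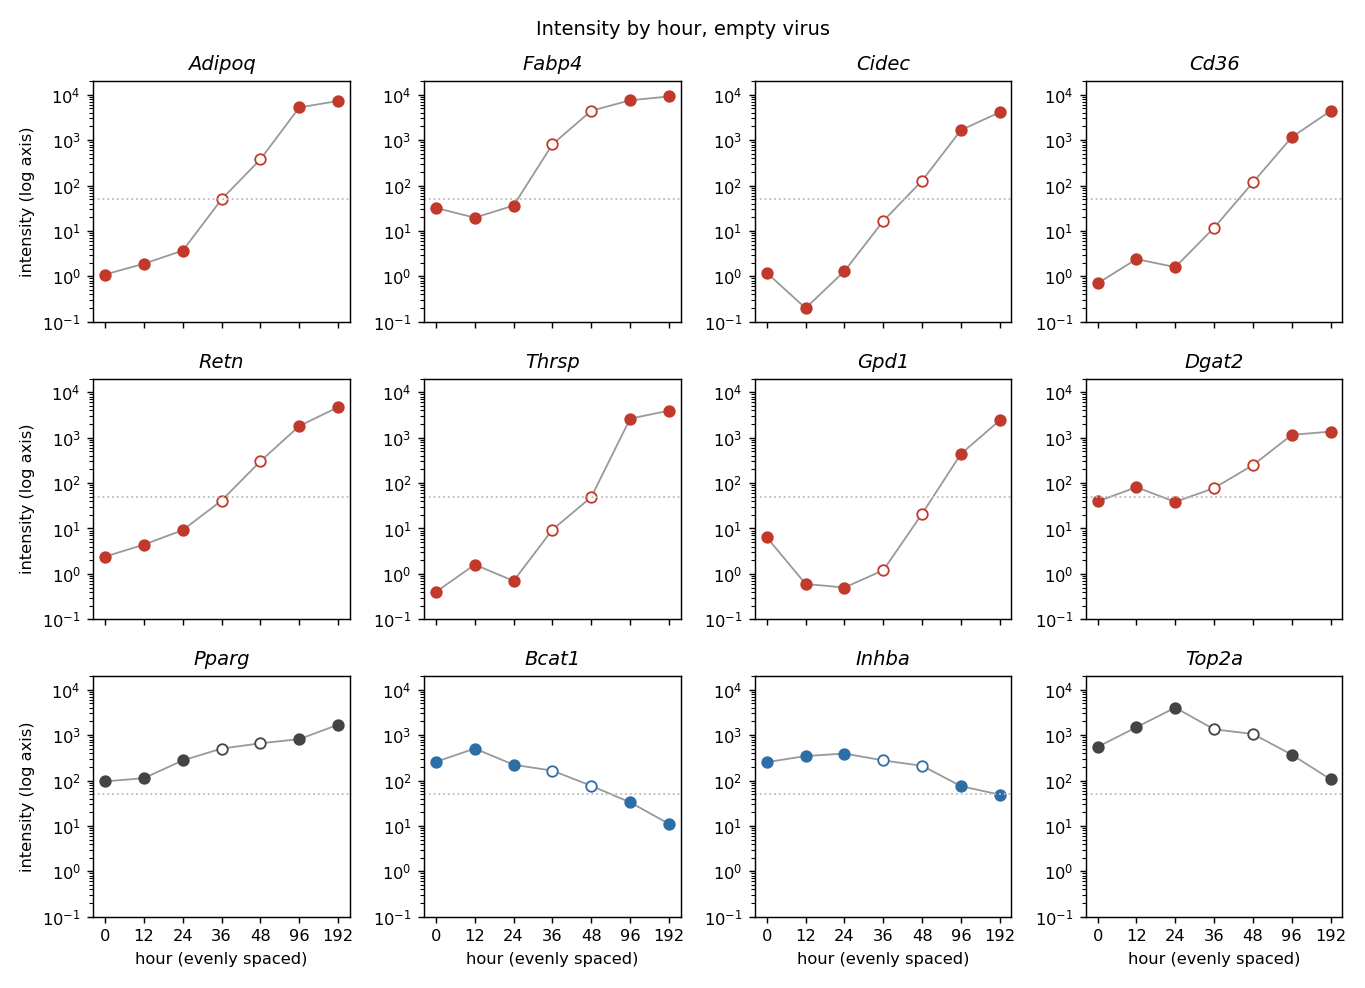
Intensity (log axis) of 12 genes by hour of differentiation, empty virus, 1 array per hour; filled points are the 5 arrays compared, open points the 36 and 48 h arrays, and the dotted line is the filter of 50. Red genes were called higher, blue genes called lower, and black genes were not called; Adipoq climbs from 3.7 at 24 h to 378.5 at 48 h, while Top2a peaks at 4032 at 24 h.

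The promoters of the gene that rose most and of the lipogenic regulator Thrsp are shown because both genes were near background before 36 h. They are the 250 bases before the gene's start, from RefSeq (GRCm38.p6), 5′ to 3′ on the gene's strand, with CCAAT on either strand in capitals: Adipoq at chr16:23146286-23146535 (plus strand) and Thrsp at chr7:97417551-97417800 (minus strand).
Adipoq: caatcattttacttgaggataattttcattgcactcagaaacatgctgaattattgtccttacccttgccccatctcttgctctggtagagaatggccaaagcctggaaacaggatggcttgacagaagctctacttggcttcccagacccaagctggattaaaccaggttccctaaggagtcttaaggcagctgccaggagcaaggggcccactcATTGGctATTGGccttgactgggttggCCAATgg
Thrsp: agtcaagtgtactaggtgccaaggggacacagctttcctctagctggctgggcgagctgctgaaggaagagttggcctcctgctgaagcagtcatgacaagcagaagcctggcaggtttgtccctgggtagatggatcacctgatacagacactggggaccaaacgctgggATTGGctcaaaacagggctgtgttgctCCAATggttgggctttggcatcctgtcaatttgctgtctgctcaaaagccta
In promoters of 300 bases (250 before to 50 after the start, both strands), 43 of the 54 called higher genes had an entry, with 60 promoters in all. CCAAT was in 36.7% of these 60 promoters, 38.0% of the 8897 promoters of compared genes and 37.4% of all 32851. TTGCNNAA, the core letters of C/EBP sites, was in 13.3%, 8.1% and 10.8%. AGGTCA, the unit repeated in sites of nuclear receptors such as PPARγ, was in 21.7%, 11.9% and 16.3%, and its direct repeat with a base between was in 0 of the 60 and 13 of the 32851. GGGCGG was in 48.3%, 65.9% and 35.7%, and the CArG box in 0 of the 60, 1.24% and 1.63%. These are letters in a short window, and distal sites were not searched.

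Called genes stood at several steps of triglyceride assembly. Of its 14 compared genes, 6 were called higher and 8 were late-high, beside 0.639% and 5.24% of all genes. Of the 14, 4 had negative differences and 2 had every early array under 50, and the median was 1.55. Gpd1, which makes glycerol 3-phosphate, had 6.4, 0.6 and 0.5 early and 439.1 and 2402 late (5.84 ± 0.67, adjusted p = 0.0311). Gpat3, which adds the first acyl chain, had 30.5, 8.5 and 8.8 early and 572.5 and 1292 late (4.85 ± 0.45, adjusted p = 0.0174). Agpat2, which adds the next chain, started at an expressed level of 122.3, 146.8 and 78.6 and reached 1175 and 1772 (3.50 ± 0.32, adjusted p = 0.0174). Lpin1, the phosphatidate phosphatase, had 76, 46.7 and 59.3 early and 435.4 and 680.9 late (2.89 ± 0.28, adjusted p = 0.0193). The final enzymes Dgat2 (39.4, 81 and 38.4 early, 1148 and 1360 late; 4.25 ± 0.31, adjusted p = 0.00947) and Dgat1 (132.6 to 148.8 early, 820.1 and 1626 late; 2.91 ± 0.32, adjusted p = 0.0262) both rose.

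Genes of fatty acid release and carriage were also among the called genes. Pnpla2, the lipase that takes the first fatty acid from a triglyceride, had 24.3, 23.9 and 26.8 early and 475.7 and 1098 late (4.18 ± 0.36, adjusted p = 0.0148). Its inhibitor G0s2 had 8.1, 5.4 and 10.6 early and 623.1 and 1478 late (5.35 ± 0.38, adjusted p = 0.00931). Both genes had every early array under 50, which fixes their direction. Lipe, the hormone-sensitive lipase, had 8.7, 7.8 and 25.5 early and 183.5 and 556.6 late, and did not pass the test (3.54 ± 0.50, adjusted p = 0.0519). Of the 10 compared genes of lipolysis, 2 were called and 5 were late-high, beside 0.639% and 5.24% of all genes. Of the 10, 3 had every early array under 50 and so passed the filter only through the late arrays. Among carriers and uptake genes 3 of 12 were called (Fabp4, Cd36 and Lpl) and 6 were late-high, beside the same shares of all genes. Fabp4 and Cd36 had every early array under 50 and so passed the filter only through the late arrays. Among lipid droplet proteins 1 of 10 was called (Cidec) and 5 were late-high, among them Plin4 with 165.9, 68.1 and 66.7 early and 535.5 and 1331 late (2.99 ± 0.51, adjusted p = 0.0816). Cidec too had every early array under 50.

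Among 18 compared genes of fatty acid synthesis Thrsp was the only called gene, and 6 were late-high (5.24% of all genes were). Thrsp had every early array under the filter and so was compared only through the late arrays. Fasn, the fatty acid synthase, had 250.1, 715.1 and 495.3 early and 1454 and 2751 late (2.12 ± 0.49, adjusted p = 0.138). Scd1, the main desaturase, had 628.1 at 0 h but 3186 at 12 h and stood at 5668 and 6957 late (1.92 ± 0.67, adjusted p = 0.244). Both had non-overlapping windows and a wide spread within the early window. Elovl6, which lengthens palmitate, lay lower late, with 158.9, 216.2 and 115.6 early and 80.5 and 31.8 late (-1.36 ± 0.39, adjusted p = 0.183).

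Cholesterol synthesis had a course of its own. The median of its 20 compared genes lay under 0 h at 12 h (-0.59), 24 h (-0.57) and 48 h (-0.77), was still at -0.29 at 96 h and reached 1.03 at 192 h. Cyp51, a sterol demethylase, was the 1 called gene, with 109, 72.5 and 77.7 early and 433.1 and 362 late (2.03 ± 0.24, adjusted p = 0.0325). Insig1, the sterol-sensing brake on the pathway, had 272.1, 71.7 and 79.5 early and 459.7 and 1334 late (2.58 ± 0.67, adjusted p = 0.153). Without the 192 h array the list's median difference was 0.20, against 0.83 with it.

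Mitochondrial genes were described in 5 lists, with no test between lists. Of 20 compared genes of fatty acid oxidation 12 were late-high (5.24% of all genes were). Without overlap, 17 lay above all early arrays (16.5% of all genes did). The list's median was 1.24, none was called by limma, and 17 had an unadjusted p under 0.05. Acads, the short-chain acyl-CoA dehydrogenase, had 87.4, 58 and 85.2 early and 273.9 and 693.9 late (2.30 ± 0.41, adjusted p = 0.085). Of 30 genes of pyruvate dehydrogenase and the citric acid cycle 12 were late-high, and 1, Mpc1, a subunit of the mitochondrial pyruvate carrier, was called (518.2 to 620.7 early, 1612 and 1942 late; 1.60 ± 0.21, adjusted p = 0.0414). Pcx, pyruvate carboxylase, had 95.6, 221.4 and 513.6 early and 1645 and 2876 late, with each hour of the early window above the one before. For complex I, 15 of 33 genes lay above all early arrays but none was late-high and none was called (8 at an unadjusted p under 0.05). The median was 0.32, but 0.16 without the 192 h array and 0.15 under common median scaling. For complexes II to V and cytochrome c, 16 of 38 genes lay above all early arrays and 2 were late-high, near the 5.24% of all genes. None was called (5 at an unadjusted p under 0.05). The median was 0.37, but 0.20 without the 192 h array and 0.21 under common median scaling. The 2 late-high genes were Uqcrfs1, the iron-sulfur subunit of complex III, with 641.3, 857.7 and 921.8 early and 1629 and 2408 late, and Sdha, a subunit of complex II, with 640.9, 634.9 and 723.7 early and 1093 and 1806 late. For the mitochondrial ribosome, 0 of 56 genes were late-high or called (2 at an unadjusted p under 0.05), with a median of 0.10 that was -0.06 under common median scaling.

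The breakdown of branched-chain amino acids held called genes in both directions. Of 21 compared genes 12 were late-high (5.24% of all genes were), 2 of them called. Aldh6a1, of the valine route, had 289.9, 131.2 and 206.2 early and 1349 and 2707 late (3.16 ± 0.42, adjusted p = 0.0462). Bckdhb, a subunit of the branched-chain keto acid dehydrogenase, had 252.4, 198.8 and 196.1 early and 807.8 and 1522 late (2.29 ± 0.31, adjusted p = 0.0487). The list's single late-low member was Bcat1, the cytosolic aminotransferase that opens the route, which fell from 257.4, 506.9 and 222.7 early to 33.1 and 11.1 late (-3.15 ± 0.43, adjusted p = 0.0485). The median of the list was 1.46. In peroxisomes, which also oxidise fatty acids, 9 of 22 genes were late-high, and 2 of the 22 had every early array under 50. Pex11a, a factor of peroxisome division, was called there, with 73.3, 44.6 and 51.3 early and 483.3 and 746.5 late (3.11 ± 0.29, adjusted p = 0.0174). Cat, catalase, had 600.8, 203.1 and 305.2 early and 2399 and 3014 late and was not called (2.94 ± 0.45, adjusted p = 0.0608).

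Pparg and Cebpa, the factors at the centre of the programme, were late-high but did not pass the test. Pparg had 95.7, 112.9 and 277.6 early and 816.8 and 1694 late (2.88 ± 0.51, adjusted p = 0.085). Cebpa had 16.2, 1.1 and 36.4 early and 144.3 and 230.3 late (2.70 ± 0.49, adjusted p = 0.0875). In both, 24 h was the highest early array and 192 h the higher late one. Klf15, a glucocorticoid-linked factor, was at 1.3 or below until 48 h and at 62.4 and 550.8 late (3.67 ± 0.77, adjusted p = 0.115). Of the 13 compared late factors 6 were late-high (5.24% of all genes were) and none was called (9 at an unadjusted p under 0.05). Of the 13, 4 had every early array under 50. The early factors were not separated by these windows: Cebpb had 1420, 3329 and 3381 early and 2405 and 1888 late (-0.24 ± 0.43, adjusted p = 0.81), and Cebpd had 212.8, 460.3 and 541.1 early and 868.5 and 142.8 late (-0.07 ± 0.77, adjusted p = 0.974). Cebpb was highest at 36 h (4083), and so was Cebpd (959.5). Among the 11 compared early factors, 0 were called and 0 were late-high or late-low (2 at an unadjusted p under 0.05).

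Several secreted products of fat cells rose. Hp, the haemoglobin-binding protein haptoglobin, had 1.7, 15.9 and 51.4 early and 1252 and 1706 late (5.46 ± 0.55, adjusted p = 0.0215). Agt, angiotensinogen, had 63.2, 52.1 and 86.9 early and was highest at 96 h (1146), with 626 at 192 h (3.39 ± 0.33, adjusted p = 0.0193). Of the 15 compared secreted products 5 were called and 8 were late-high, beside 0.639% and 5.24% of all genes. Adipoq is counted here and among the adipocyte markers. Of the 15, 3 had every early array under 50. Slc2a4, the insulin-responsive glucose transporter, had 4.1, 1.8 and 8.8 early and 75 and 334.4 late and was not called (3.11 ± 0.56, adjusted p = 0.085). Of 16 genes of insulin signalling and glucose uptake 3 were late-high and none was called (5 at an unadjusted p under 0.05), and 1 had every early array under 50. Mc2r, the receptor of the pituitary hormone ACTH, and Mrap, the protein that carries it to the cell surface, were picked out after their values were seen: Mc2r had 0.8, 0.3 and 5.1 early and 146.5 and 266 late (3.58 ± 0.30, adjusted p = 0.0133), and Mrap had 2, 2.7 and 1 early and 367.8 and 930.7 late (5.07 ± 0.39, adjusted p = 0.00947). Both had every early array under 50 and passed the filter only through the late arrays, which fixes their direction.

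The 5 genes that fell were of different kinds. Besides Bcat1, these were Tagln2, an actin-binding protein, with 576.8, 1030 and 1161 early and 146.7 and 77.9 late (-2.86 ± 0.39, adjusted p = 0.0485); Inhba, whose product forms activin, with 253.8, 345.5 and 392.4 early and 75.3 and 48.8 late (-2.15 ± 0.28, adjusted p = 0.0415); Prkg2, a cyclic GMP-dependent kinase, with 928.5, 1209 and 1048 early and 345.9 and 242.4 late (-1.81 ± 0.24, adjusted p = 0.0462); and Runx1, a Runt family transcription factor, with 53.4, 59 and 58.8 early and 10.6 and 4.2 late (-1.66 ± 0.21, adjusted p = 0.0415). In each, 192 h was the lowest of the 7 hours. None of the 5 was called in every fit with 1 array left out.

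Genes of mitosis and cytokinesis were the list with the most late-low members and held no called gene. Of its 45 compared genes 42 were late-low (3.86% of all genes were) and 43 lay below all early arrays (19.5% of all did). The list's median was -1.96, 0 were called by limma and 38 had an unadjusted p under 0.05. Their early values were spread by a peak at 24 h, where the list's median stood 1.81 above 0 h. Top2a, the topoisomerase that untangles chromosomes, had 549.5, 1492 and 4032 early and 370.7 and 106 late (-2.80 ± 0.88, adjusted p = 0.214). Cdc20, an activator of the anaphase-promoting complex, had 785.6, 557.1 and 2485 early and 356.9 and 114.1 late (-2.25 ± 0.73, adjusted p = 0.223). Ccna2, a cyclin of S phase and mitosis, had 291, 294.2 and 1194 early and 147.8 and 38.6 late. The late levels thus lay under those of the confluent cells at 0 h as well, and 192 h lay under 96 h in each of these genes. Without the 24 h array the median was -1.29.

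DNA replication genes were already above 0 h at 12 h. Of 44 compared genes 36 were late-low and 42 lay below all early arrays, again beside 3.86% and 19.5% of all genes. Of the 44, 0 were called and 39 had an unadjusted p under 0.05, with a median of -1.41. Their median stood 0.93 above 0 h at 12 h and 0.98 above it at 24 h, while that of mitosis genes was at -0.21 at 12 h. Mcm5, of the replicative helicase, had 455.2, 1410 and 1227 early and 243 and 68.1 late (-2.67 ± 0.65, adjusted p = 0.149). Rrm2, a subunit of ribonucleotide reductase, had 578, 2117 and 2012 early and 448.6 and 115.1 late (-2.47 ± 0.75, adjusted p = 0.201). Both were high at 12 as well as 24 h. Among 18 genes of the G1 control, Cdkn2c, an inhibitor of the cyclin D kinases, was one of 2 late-high genes, with 348, 165 and 413 early and 1054 and 2256 late (2.36 ± 0.49, adjusted p = 0.112).

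The promoters of Cdc20 and Top2a are shown because their list shared 2 short motifs that the comparison did not use: CCAAT, known to be bound by NF-Y, and TTTGAA, the core letters of the cell cycle genes homology region. Both are in capitals on either strand, in the 250 bases before the start (RefSeq, GRCm38.p6, 5′ to 3′ on the gene's strand): Cdc20 at chr4:118437344-118437593 and Top2a at chr11:99024190-99024439, both on the minus strand.
Cdc20: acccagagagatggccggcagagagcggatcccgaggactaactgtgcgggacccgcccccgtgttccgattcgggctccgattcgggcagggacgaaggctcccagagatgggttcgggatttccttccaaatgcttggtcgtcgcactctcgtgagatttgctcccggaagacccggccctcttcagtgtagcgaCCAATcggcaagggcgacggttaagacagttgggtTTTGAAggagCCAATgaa
Top2a: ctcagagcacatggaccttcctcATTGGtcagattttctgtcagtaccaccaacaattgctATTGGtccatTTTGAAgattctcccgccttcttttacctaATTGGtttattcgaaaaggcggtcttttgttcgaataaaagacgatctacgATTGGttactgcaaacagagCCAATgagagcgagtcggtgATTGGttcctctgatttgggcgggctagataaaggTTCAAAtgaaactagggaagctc
The Cdc20 stretch holds 2 CCAAT and 1 TTTGAA, and that of Top2a 6 and 2. Of the 41 promoters of 300 bases found for 38 of the 45 mitosis genes, 32 (78.0%) held CCAAT, 31 (75.6%) held TTTGAA and 28 (68.3%) held both. In the 45 promoters of DNA replication genes CCAAT was in 57.8%, TTTGAA in 13.3% and both in 8.89%. Among the 317 promoters of all late-low genes both were in 18.6%, among the 472 of late-high genes in 2.97%, and among the 8897 of compared genes in 4.63%. No list was tested for these motifs.

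Matrix, adhesion and signalling genes differed in both directions. Of 29 matrix proteins other than collagens 4 were late-high and 4 late-low, and of 16 adhesion receptors 1 and 2. Of 15 matrix proteases and inhibitors 1 was late-high and 2 late-low. Of 14 Wnt pathway genes 2 were late-high and 0 late-low, and of 23 TGF-beta and BMP genes 0 and 2. Of all genes 5.24% were late-high and 3.86% late-low. The 16 compared collagens had 1 late-high member, near the 5.24% of all genes, and a median of 0.18 (0.01 under common median scaling). Fn1, fibronectin, had 4163, 4391 and 4408 early and 2420 and 1264 late (-1.30 ± 0.30, adjusted p = 0.14), and Dcn, decorin, had 3676, 2887 and 2668 early and 4262 and 5980 late (0.72 ± 0.26, adjusted p = 0.247). Dpt, the matrix protein dermatopontin, picked out after its values were seen, rose from 193.2, 142.6 and 119.3 to 1047 and 1810 (3.08 ± 0.32, adjusted p = 0.0235). Timp1, a protease inhibitor, had 667.3, 1520 and 1061 early and 300.2 and 159.3 late (-2.15 ± 0.42, adjusted p = 0.104), while its relative Timp4 rose from 9.7, 3.7 and 10.2 to 61.6 and 56.8 (1.67 ± 0.22, adjusted p = 0.0439). Grem1, a secreted BMP antagonist, had 1136, 752.4 and 716.5 early and 183.4 and 85.5 late (-2.60 ± 0.37, adjusted p = 0.0519). The chemokine genes Cxcl1 (497.7, 242.1 and 328.8 early, 68.2 and 68.7 late) and Cxcl5 (541.8, 230.4 and 370.8 early, 41.8 and 101.9 late) were 2 of 3 late-low members among 11 inflammatory genes, none of which was called (4 at an unadjusted p under 0.05). Of all genes, 3.86% were late-low.

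Among factors known to hold preadipocytes back, 4 of 23 were late-low (3.86% of all genes were) and 1, Runx1, was called lower (0.0592% of all). Id2, an inhibitor of helix-loop-helix factors, had 259.1, 518.7 and 359.5 early and 48 and 73.2 late (-2.33 ± 0.34, adjusted p = 0.055). Dlk1, the classic preadipocyte marker, had 2389, 2167 and 1860 early, was lowest at 96 h (719.2) and stood at 1813 at 192 h (-0.89 ± 0.40, adjusted p = 0.336). Its late arrays were thus both below the early ones, by a margin at 192 h that was small beside the gap between the late arrays.

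Genes of protein synthesis and turnover had small differences of late from early, mostly below 0, but the late medians were not all below 0 h. Negative differences were found for 37 of 38 cytosolic ribosomal proteins, 25 of 27 ribosome biogenesis genes and 24 of 31 proteasome genes, beside 4368 of all 8447. Of 38 cytosolic ribosomal proteins 0 were late-high, late-low or called (1 at an unadjusted p under 0.05), with a median of -0.17 (-0.33 under common median scaling). Of 31 proteasome genes 0 were late-high, late-low or called (0 at an unadjusted p under 0.05), with a median of -0.12 (-0.29 under common median scaling and -0.02 without 12 h). Set against 0 h, the proteasome median was 0.42 and 0.40 at 12 and 24 h and 0.13 and 0.16 at 96 and 192 h. That of cytosolic ribosomal proteins was 0.24 and 0.29, then 0.07 and -0.10. Ribosome biogenesis had a median of -0.55, after a median 1.04 above 0 h at 12 h. Of its 27 genes 1 was late-low, near the 3.86% of all genes, and none was called (2 at an unadjusted p under 0.05). Its median difference was -0.22 without the 12 h array and -0.28 without the 192 h array. Nop56, a nucleolar protein, had 544.4, 2163 and 1252 early and 589.6 and 301.7 late (-1.40 ± 0.60, adjusted p = 0.317).

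**Figure D3:**
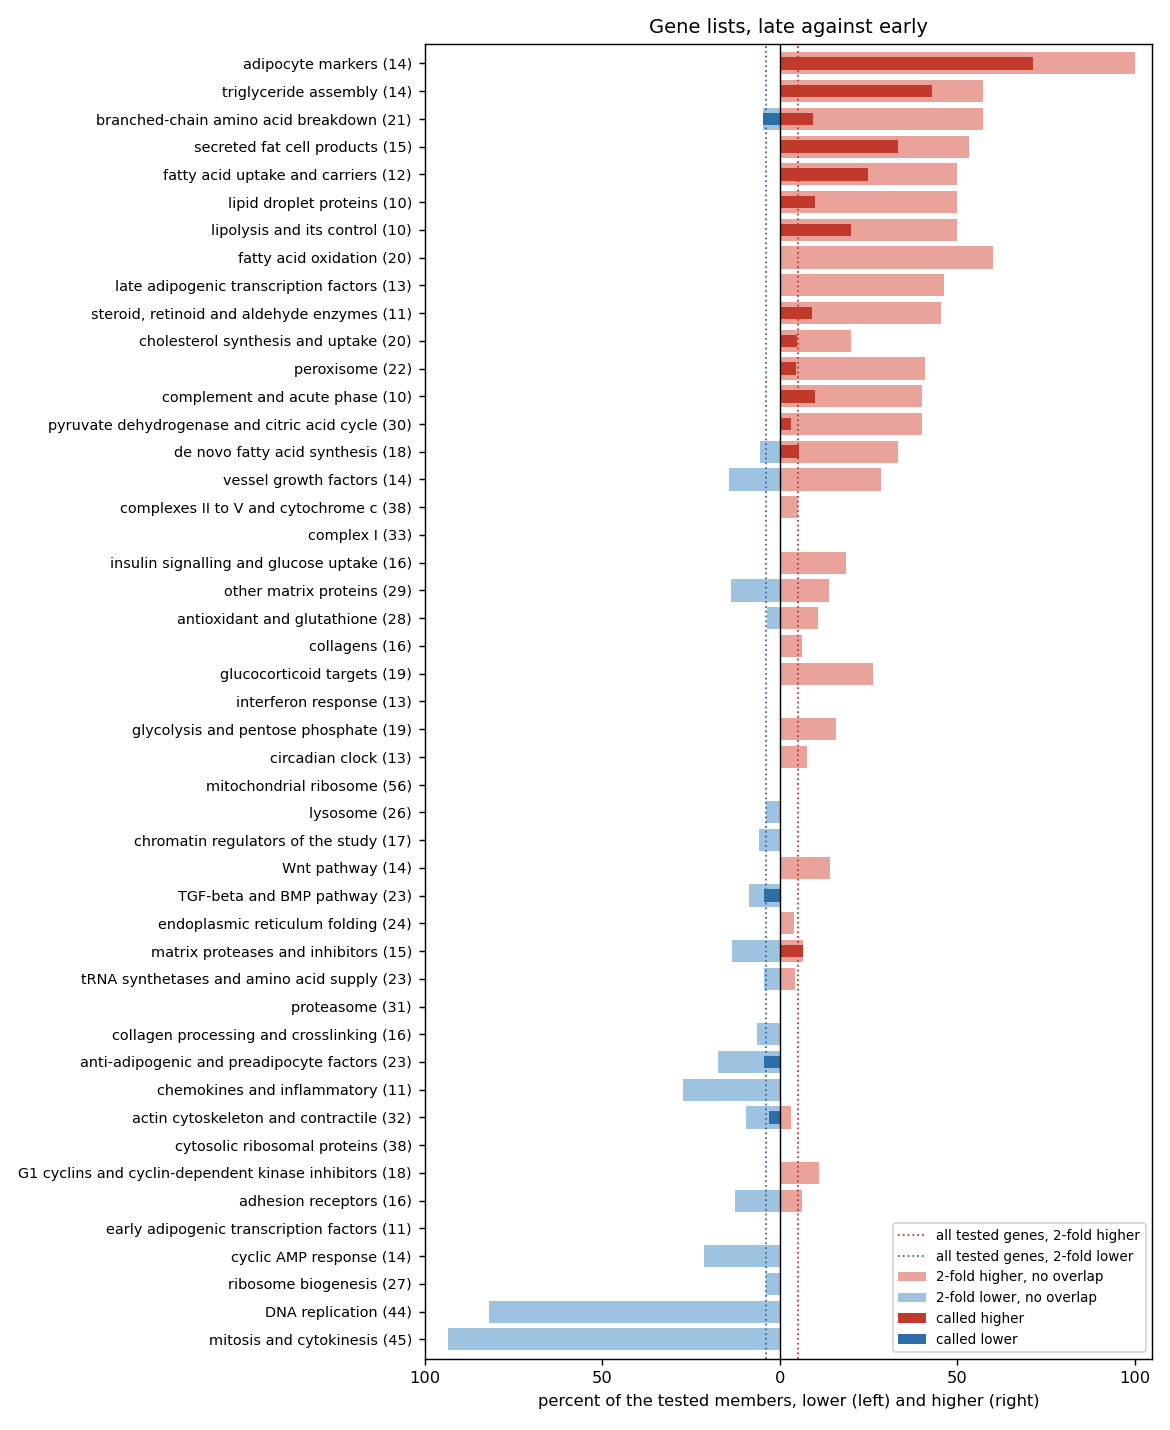
Percent of the compared members of each gene list with at least 10 compared members (number in brackets) that were late-high (pale red) or late-low (pale blue) and that were called (dark bars), ordered by the list's median difference; dotted lines give the share over all 8447 genes. Adipocyte markers are at the top with 14 of 14 late-high, and mitosis at the bottom with 42 of 45 late-low.

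Targets of the hormone mixture were mostly not separated by the contrast of late with early. The median of 19 compared glucocorticoid targets stood 1.12, 1.64 and 2.65 above 0 h at 12, 24 and 48 h and 0.36 above it at 192 h. Lcn2, lipocalin 2, had 3.8, 1127 and 2357 at 0, 12 and 24 h, 889.6 at 96 h and 13.1 at 192 h, so that 0 and 192 h were alike and the hours between were high. Hsd11b1, which regenerates active glucocorticoid, had 13.6, 50.9 and 98.6 early and 406.1 and 1353 late (3.64 ± 0.71, adjusted p = 0.103). In all, 5 of the 19 were late-high (5.24% of all genes were) and none was called (5 at an unadjusted p under 0.05). In the cyclic AMP list 3 of 14 genes were late-low (3.86% of all genes were) and none was called (3 at an unadjusted p under 0.05).

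**Figure D4:**
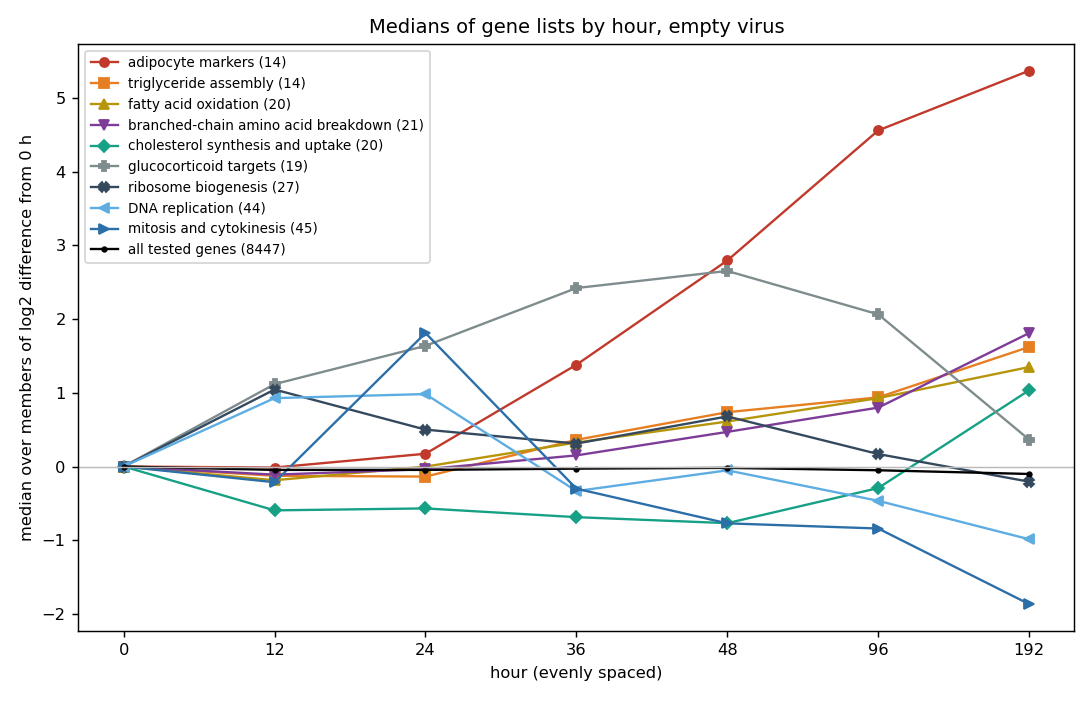
Median over the compared members (number in brackets) of the log2 difference from the 0 h array, at each of the 7 hours of the empty virus, hours evenly spaced, 1 array per hour. Mitosis genes peak at 24 h (1.81), glucocorticoid targets at 48 h (2.65), adipocyte markers climb to 5.37 at 192 h, and cholesterol synthesis genes lie under 0 until 96 h.

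The 36 and 48 h arrays, which the comparison did not use, lay between the window means for most late-high and late-low genes. With the early mean set to 0 and the late mean to 1, the median position of the 443 late-high genes was 0.30 at 36 h and 0.46 at 48 h, and that of the 326 late-low genes was 0.50 and 0.58. For the 54 called higher genes it was 0.29 and 0.54, and for the 5 called lower genes 0.27 and 0.57. Thus 199 of the 443 late-high genes and 216 of the 326 late-low genes were past the midpoint at 48 h. The late window was not a plateau. Of the late-high genes 373 were higher at 192 than at 96 h, 124 of them at least 2-fold, and of the late-low genes 298 were lower at 192 h, 80 of them at least 2-fold.

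**Figure D5:**
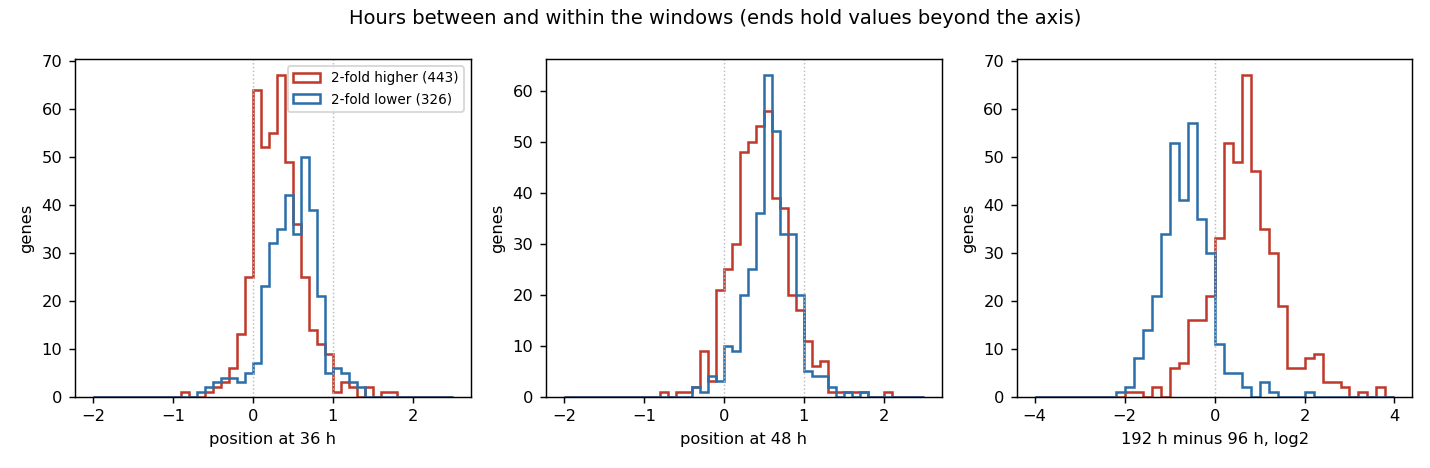
Numbers of late-high (red, 443) and late-low (blue, 326) genes by their position at 36 h and at 48 h between the early mean (0) and the late mean (1), and by the log2 difference of 192 h from 96 h. The medians at 48 h were 0.46 and 0.58, and most late-high genes lie to the right of 0, most late-low genes to the left, in the third panel.

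On the arrays labelled SETD5 the late minus early differences of genes chosen on the empty virus arrays were mostly smaller, and that choice itself favours large empty virus values. The label could not be checked by the gene's own level on these arrays. The study itself reported higher Setd5 mRNA in SETD5-transduced cells by quantitative PCR, and showed the tagged protein by immunoblot. The brightest Setd5 probe set read 339.8, 239.3 and 253.9 early and 350.1 and 321.4 late on those arrays, against 377.5, 249.4 and 298 early and 355.6 and 286.3 late with the empty virus, so it was not higher under the SETD5 label at 4 of the 5 hours. The other 2 Setd5 probe sets were each higher under the SETD5 label at 2 of the 5 hours. No source used here says whether these probe sets read the transcript of the virus. The median difference of the 54 called higher genes was 2.92 with the empty virus and 1.31 on the arrays labelled SETD5, where 52 had the same sign. For the 326 late-low genes it was -1.50 and -1.23.

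The difference of the changes was tested with limma on 8902 genes, and the outcome depended on the design. With hours as plain replicates 0 (0%) were called, with 386 at an unadjusted p under 0.05 and a lowest adjusted p of 0.212. With the hour as a block, which compares the viruses within each hour and was added after the first result was known, 779 (8.75%) were called, 483 with the change higher for the empty virus and 296 with it higher for SETD5. Of these, 42 were among the 54 genes that rose and 3 among the 5 that fell. Those 54 and 5 genes were chosen on the empty virus arrays that also enter this contrast, so the choice itself favours such calls. Noct, which encodes nocturnin, had 93.6, 153.5 and 112.2 early and 634.5 and 698.2 late with the empty virus. On the arrays labelled SETD5 it had 93.9, 164.5 and 117.3 early and 97.1 and 101.9 late. The viruses were thus alike at the early hours and apart at both late hours (2.61 ± 0.13, blocked adjusted p = 0.000105). Thrsp differed by 2.68 ± 0.17 (blocked adjusted p = 0.000296) and Pparg by 1.62 ± 0.32 (blocked adjusted p = 0.0247). Adipoq differed by 0.95 ± 0.26 (blocked adjusted p = 0.058) and Fabp4 by 0.35 ± 0.26 (blocked adjusted p = 0.417), and neither passed the test. Each virus had 1 array per hour, so virus and culture cannot be told apart.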

How the data were processed

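RNA of 14 arrays was analysed, 7 for each virus. The deposited table gave a linear intensity for every probe set (average difference, GeneChip Analysis Suite), and the authors had set the trimmed mean of each array (2% trim) to 100. Of 45100 probe sets, 64 were controls, 34944 had 1 gene symbol in the platform annotation, 932 several and 9160 none. A gene with several probe sets was read from the brightest by its mean over 14 arrays. Genes had to reach 50 on 2 of the 5 arrays compared; 16 was then added and log2 taken.

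Groups came from the virus and hour in the labels. The 2 windows were compared with limma 3.58.1 in R 4.3.3 (lmFit and eBayes, 3 residual degrees of freedom, two-sided, Benjamini-Hochberg over 8447 genes); the viruses were compared by an interaction contrast (6 residual degrees of freedom), and again with the hour as a block (3). Arrays of the same hour deviated together from their group means, with correlations across genes of 0.645 to 0.943; the pairing comes from the hour in the labels. An exact permutation test of 3 against 2 arrays cannot go below p = 0.1. On simulated arrays of 8447 genes, 83 of 100 genes changed 2-fold and 98 of 100 changed 4-fold were recovered, with 6 false calls. The simulated noise was independent between arrays and held no change between the hours of a window. These rates therefore do not carry over to the real arrays, where the smallest called rise was 1.60 (log2). The number of arrays limits the precision; detection calls were not used here.

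The comparison and the 49 gene lists and 9 marker lists were chosen with earlier results of these data known, and no list was tested. Named genes were the 12 largest rises and falls among called genes with a mean of 100 or more in the higher window and no overlap, up to 4 members of each list by size, and 11 set genes and markers; Agt, Bckdhb, Ccna2, Dcn, Dgat1, Dpt, Elovl6, Lpin1, Mc2r, Mrap and Noct were chosen after their values were seen. Alternatives were other scalings, offsets, filters, probe sets, priors, arrays and windows, a fold limit, and leaving out each array.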

Additional observations from a re-analysis of the deposited data

Results flagged for a closer look

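Mrpl1, a protein of the mitochondrial ribosome, went opposite ways with the 2 viruses. With the empty virus both late arrays (151.6 and 193.2) lay above the early ones (86.6, 81.8 and 116.6), and with the SETD5 virus both (68 and 60.4) lay below them (76.4, 112.4 and 92.7). The difference of the changes was 1.21 ± 0.29 on the log2 scale (SE; limma adjusted p = 0.575 with hours as replicates, 0.0221 with the hour as a block), so the test passed only with the block. It was the 1 gene of this kind among the 195 named by rule.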

How the results depend on the processing

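The number of called genes depended on the arrays and the spread they gave. Called genes kept their direction without any 1 array, but this was fixed in advance, because their windows did not overlap. Genes called higher were 54 and genes called lower 5; without any 1 array these ranged from 6 (without 12 h) to 130 (without 0 h) and from 0 to 63. Without 24 h there were 13 and 0, without 96 h 68 and 3, and without 192 h 13 and 0. Of the 54 genes called higher, 53 stayed called without 0 h and 6 without 12 h. Counts higher and lower were 11 and 0 with no filter, 35 and 0 with a trended robust prior, 155 and 33 with all 7 empty virus arrays, 307 and 100 with 10 arrays of both viruses, and 6 and 1 with 48 h added to the late window; the genes called lower were 1 with an offset of 4 or 64 and 0 against a fold limit of 1.2. Other settings kept each count within 1.5 times. In added settings, late-high genes ranged from 401 to 728 and late-low genes from 265 to 584 without 1 array, most without 0 h or 96 h, and an offset of 64 left 197 late-low genes. The difference between viruses gave 0 calls with quantile scaling and with offsets of 4 and 64, and 779 with the hour as a replicate block, a setting added after seeing the data. All 31 other probe sets of called genes went the same way, and 21 were called. Their genes were chosen on the same arrays and they passed the same filter, which favours such agreement. Among 195 named genes, signs turned only in genes not called: Cebpd at 0.38 with 48 h added to the late window, Dlk1 at 0.12 by its other probe sets, and Setd5 at -0.091 with a common median and -0.25 by its other probe sets. Without 1 array, differences ranged from -1.31 to 1.17 for Cebpd, -0.082 to 0.22 for Setd5, -0.19 to 1.71 for H2-K1, -3.70 to 1.26 for Lcn2 and -1.38 to 0.39 for Plod2; each changed sign without 192 h except Setd5, which did so without 12 h and without 96 h. The cause of these shifts was not tested. Late against early could not be paired, since each window holds different hours.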

Other observations

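Genes outside the lists, picked out after their values were seen, had some of the largest late-high and late-low values without a call. Apoc1, an apolipoprotein, had 29.9, 22.7 and 22.4 early, 348.1 at 96 h and 4482 at 192 h (4.97 ± 0.97, limma adjusted p = 0.104). Aoc3, an amine oxidase of fat cell membranes, had 311.5, 23.8 and 47.5 early and 754.4 and 3643 late (4.16 ± 1.04, adjusted p = 0.151). Krt15, a keratin, had 26, 955.3 and 623.6 early and 19 and 0.9 late (-3.61 ± 1.34, adjusted p = 0.269), with 515.9 at 36 h and 419.5 at 48 h. Aqp1, a water channel, had 1069, 2146 and 1403 early and 258.9 and 64.1 late (-3.33 ± 0.57, adjusted p = 0.0799).

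The filter left out 224 genes that reached 50 only at 192 h among the 5 arrays. Cox8b, a subunit of cytochrome oxidase typical of brown fat and muscle, was at 6.1 or below until 48 h, at 17.8 at 96 h and at 977.2 at 192 h. Of other brown fat markers, Cox7a1 was at 13.5 or below until 96 h and at 41.7 at 192 h. At 192 h Elovl3 was at 11.1, Cidea at 7.4, Prdm16 at 5.8, Dio2 at 5.3, Zic1 at 2.7 and Ucp1 at 1.5. Ppargc1a, a coactivator of mitochondrial genes, was at 56.6 at 0 h and 118.6 at 192 h, with 2.8 and 8.3 at 12 and 24 h.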
